A study of Mus musculus with 4 samples.

Results

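The genes of the mitochondrial respiratory chain and ATP synthase were followed in embryonic mouse hearts labelled as a conditional knockout of Salvador (Sav1), a scaffold protein of the Hippo kinase pathway. Members were taken by a rule on names, which was set with earlier results of these data known. The rule took every gene with 1 symbol in the platform's gene table whose symbol begins with Nduf, Uqcr, Cox4 to Cox8 or Atp5, or is Sdha, Sdhb, Sdhc, Sdhd, Cyc1 or Cycs. This gave 72 of the 16675 genes tested. Of these, 67 code for subunits of complexes I to V (31 of complex I, 4 of complex II, 7 of complex III, 16 of complex IV and 9 of complex V). The others were Ndufaf1 and Ndufa12l (Ndufaf2 in RefSeq), which are assembly factors of complex I, and 3 further genes not counted as subunits. These were Cox4nb (Emc8), Atp5s (Dmac2l) and Atp5sl (Dmac2). Cycs had no probe in the table and was not analysed here.

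RNA came from whole hearts at embryonic day 9.5 of C57bl/6 x129 hybrid mice, and each of the 4 one-colour arrays held Cy5-labelled RNA of a pool of hearts. The 2 control pools carried the genotype label wild-type, and the 2 mutant pools the label Salv CKO. No source used here names the Cre driver or the number of hearts in a pool. The pools are described as biological replicates, so p-values measure the spread between pools. The comparison asked which transcripts differ in the forming heart when Hippo signalling is impaired.

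The respiratory chain passes electrons from NADH and succinate to oxygen and pumps protons out of the mitochondrial matrix. Complex I oxidises NADH, complex II oxidises succinate, complex III passes electrons to cytochrome c and complex IV reduces oxygen, while complex V uses the proton gradient to make ATP. Most subunits are coded in the nucleus, and several complex IV subunits exist as a form found in most tissues and a form of heart and skeletal muscle. Cox6a2, Cox7a1 and Cox8b are the muscle forms, and Cox6a1, Cox7a2 and Cox8a are their widely expressed counterparts.

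The upstream sequences of 6 members are shown. Cox7a1 and Cox8b are the muscle forms with a sequence and had fewer CpG dinucleotides than their counterparts Cox7a2 and Cox8a, Cox6a1 is the counterpart of Cox6a2, and Uqcr was the called member of complex III with the lowest p. Each is the stretch of 250 bases before the RefSeq start of transcription in GRCm38.p6, written 5′ to 3′ on the gene's strand. Capitals mark matches, on either strand, to the letters of 8 motifs. The NRF-1 motif, named for nuclear respiratory factor 1, was searched as GCGC and TGCGC with any single base between them. The ETS motif, which GABP binds, was CCGGAAG. The GC box of Sp1 was GGGCGG, and the motif of YY1 was AAGATGGCG. The motif of the estrogen-related receptors (ERR) was AAGGTCA. The MEF2 motif was CTA and TAG with any 4 bases between them. The E-box of muscle factors was CAGCTG, and the TATA motif was TATAAA.

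Cox7a1, chr7:30183921-30184170, plus strand: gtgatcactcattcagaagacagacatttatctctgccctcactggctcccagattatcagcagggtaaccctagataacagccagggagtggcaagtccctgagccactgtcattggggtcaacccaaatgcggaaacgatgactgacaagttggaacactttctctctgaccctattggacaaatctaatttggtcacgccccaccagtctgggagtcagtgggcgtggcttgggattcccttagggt

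Cox8b, chr7:140900447-140900696, minus strand: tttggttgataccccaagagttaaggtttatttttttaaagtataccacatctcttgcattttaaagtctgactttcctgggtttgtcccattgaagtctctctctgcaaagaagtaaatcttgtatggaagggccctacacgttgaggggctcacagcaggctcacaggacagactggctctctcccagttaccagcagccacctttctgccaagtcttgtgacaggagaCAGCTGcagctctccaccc

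Cox8a, chr19:7217617-7217866, minus strand: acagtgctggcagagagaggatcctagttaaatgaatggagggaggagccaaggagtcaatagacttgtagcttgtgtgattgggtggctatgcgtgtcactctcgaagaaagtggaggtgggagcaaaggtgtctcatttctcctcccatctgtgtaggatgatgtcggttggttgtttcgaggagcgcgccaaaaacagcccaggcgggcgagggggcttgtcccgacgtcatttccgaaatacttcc

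Cox7a2, chr9:79759854-79760103, minus strand: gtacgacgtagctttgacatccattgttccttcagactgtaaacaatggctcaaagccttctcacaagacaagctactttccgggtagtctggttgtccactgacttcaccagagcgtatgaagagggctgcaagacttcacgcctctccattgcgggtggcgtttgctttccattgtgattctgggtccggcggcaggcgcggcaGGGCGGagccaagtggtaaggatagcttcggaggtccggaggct

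Cox6a1, chr5:115348959-115349208, minus strand: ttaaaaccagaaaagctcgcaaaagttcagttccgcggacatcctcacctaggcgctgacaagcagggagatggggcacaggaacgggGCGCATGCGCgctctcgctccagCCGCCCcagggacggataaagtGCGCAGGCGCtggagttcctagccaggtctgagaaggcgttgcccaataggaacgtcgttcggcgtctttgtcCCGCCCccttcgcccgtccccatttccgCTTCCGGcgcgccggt

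Uqcr (Uqcr11 in RefSeq), chr10:80406822-80407071, minus strand: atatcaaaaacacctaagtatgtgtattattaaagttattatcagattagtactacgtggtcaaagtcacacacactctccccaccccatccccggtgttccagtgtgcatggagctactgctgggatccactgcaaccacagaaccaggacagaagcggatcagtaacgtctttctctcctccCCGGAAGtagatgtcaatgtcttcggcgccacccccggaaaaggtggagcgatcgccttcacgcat

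In the whole RefSeq windows, which run from 250 bases before the start to 50 bases after it, the 2 muscle forms had few CpG dinucleotides. There were 2 in that of Cox8b and 7 in that of Cox7a1, against 20 for Cox7a2, 19 for Cox8a and 32 for Cox6a1. Cox7b, which has no muscle form here, had 5. The median was 19 over the 60 windows of 55 subunits and 7 over all 32851 windows. The NRF-1 letters stood in 21.7% of the subunit windows and 4.60% of all windows, the ETS letters in 21.7% and 8.86%, and the YY1 letters in 8.33% and 1.40%. The GC box stood in 43.3% and 35.7%, the ERR letters in 11.7% and 4.72%, the E-box in 10.0% and 16.3%, and TATAAA in 11.7% and 13.6%. The MEF2 letters stood in 0 of the 60 subunit windows and 3.69% of all windows. Matches to different motifs overlapped once in the members' windows. Of the 72 members 59 had a window, and Cox6a2 was among the 13 without one. A match describes the letters and not a binding site.

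Of the 72 members, 11 were lower in Salv CKO and 0 were higher at a limma adjusted p under 0.05. That is 15.3% of the members called lower, where 5.70% of all genes were called lower and 4.92% higher. The members were bright, with a median log2 intensity of 12.2, and bright genes were called more often. Among the 1284 genes at least that bright, 17.2% were called lower, and 11 of the 36 members in that range (30.6%) were. Both mutant pools lay below both controls for 27 of these 36 members, against 38.2% of the equally bright genes. Without an adjustment 32 of the 72 members had a limma p under 0.05, 27 lower and 5 higher, beside 4460 of all 16675 genes. Levels are log2 intensities after quantile normalisation, where an intensity over 16 (log2 4) counted as above background, and differences are Salv CKO minus control with the standard error from limma, n = 2 pools per group.

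Over the 66 members above background on all 4 arrays the median difference was -0.24, beside -0.04 over the 12402 genes so measured. Both mutant pools lay below both controls for 39 of the 66 members (59.1%, where 33.4% of all measured genes did), and above both for 6 (9.09%, against 27.8%). The difference was below 0 for 52 (78.8%, against 53.8%). The differences ran from -1.15 to 0.40. No member passed when any 1 array was left out, and neither did any other gene. Without a trend of the variance with intensity in the fit, 0 genes passed as well (17 members and 3578 of all genes had an unadjusted limma p under 0.05), and with intensities floored at 16 in place of 1 a single member, Cox8b, passed.

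**Figure D1:**
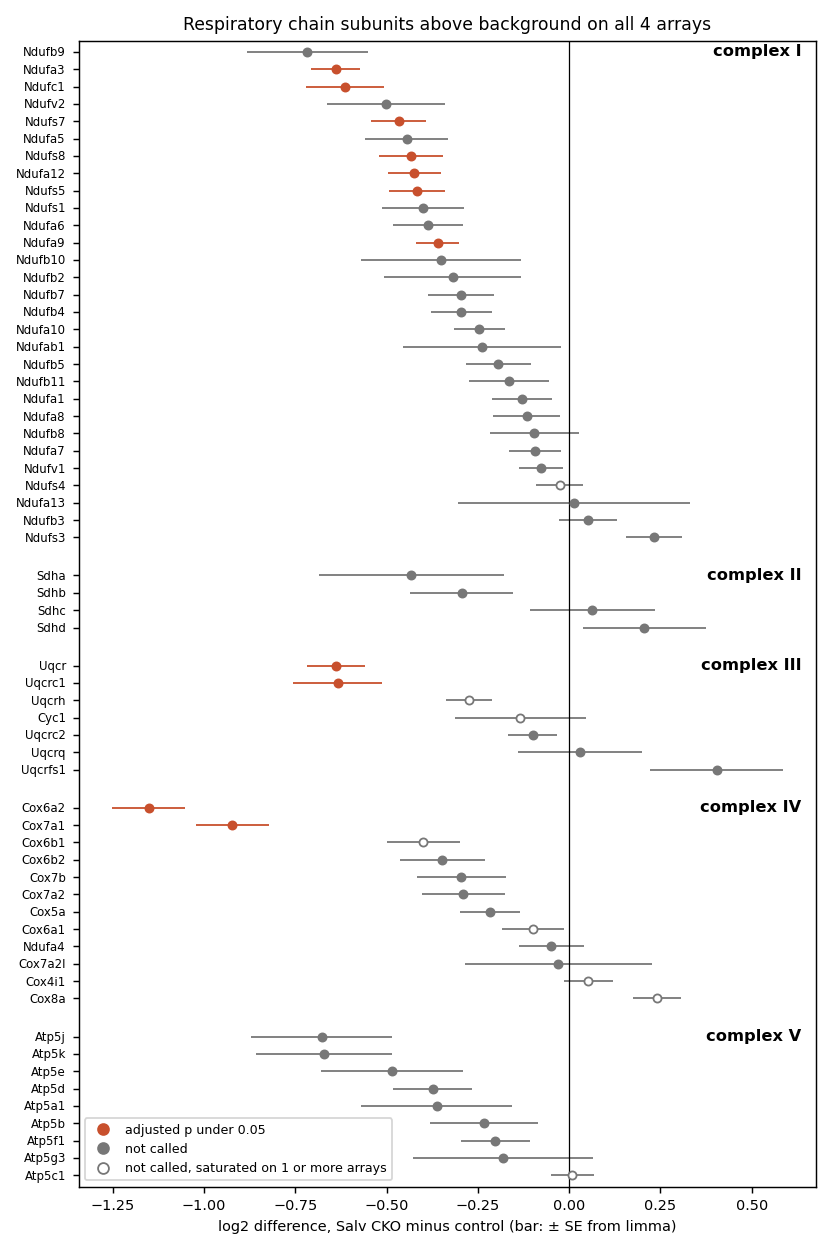
Log2 difference (Salv CKO minus control, x axis) of the 61 subunits above background on all 4 arrays, by complex, with bars for ± SE from limma (n = 2 pools per group). The 11 called subunits (orange) all lie left of 0 and belong to complexes I, III and IV, with Cox6a2 (-1.15) and Cox7a1 (-0.92) farthest left; open points have a saturated array.

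**Figure D2:**
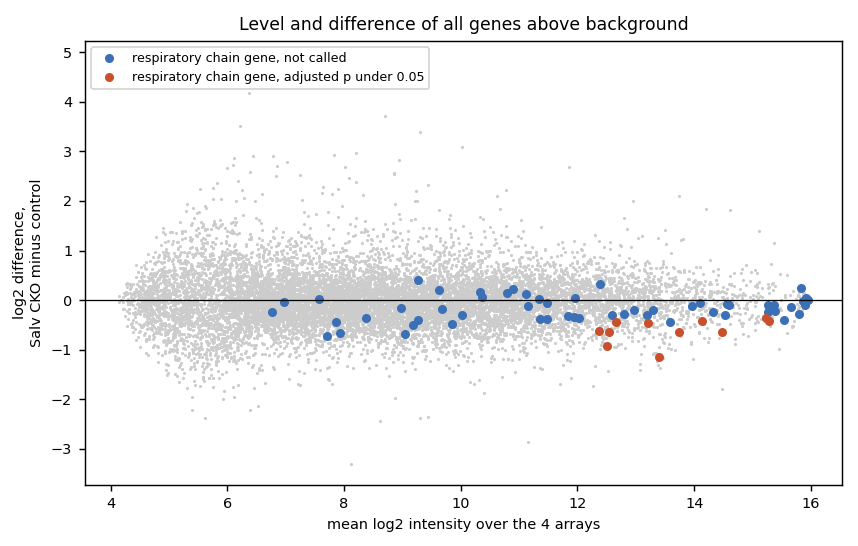
Mean log2 intensity over the 4 arrays (x axis) against the log2 difference, Salv CKO minus control (y axis), for the 12402 genes above background on all arrays (grey) and the 66 members so measured (blue, and orange where called). The 11 called members all lie above the members' median level of log2 12.2.

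Among members above background on all 4 arrays, the largest differences were those of Cox6a2 and Cox7a1, muscle forms of complex IV subunits. Cox6a2, the muscle form of subunit VIa, had levels of 13.85 and 14.10 in the controls and 12.80 and 12.84 in Salv CKO. The mutant pools were close together and well below both controls. The difference of -1.15 ± 0.10 (limma adjusted p = 0.00912) put the mutant level at 0.450 of control. Cox7a1, the muscle form of subunit VIIa, had levels of 12.86 and 13.09 in the controls and 12.01 and 12.08 in Salv CKO. Here too the groups did not overlap, and the difference was -0.92 ± 0.10 (adjusted p = 0.0122), or 0.527 of control.

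Cox8b, the muscle form of subunit VIII, was a dim gene in these hearts. Its control levels were 6.39 and 6.26, and those of Salv CKO were 4.04 and 2.35, so that 1 of the 2 mutant pools lay above background. Entered at the background limit for the dimmer pool, the controls were 4.95-fold above Salv CKO. The fitted difference of -3.13 ± 0.67 did not pass (adjusted p = 0.0512). It did pass, at adjusted p of 0.0175 to 0.0487, under 6 of the alternatives: with arrays centred, divided by the 75th percentile or taken as deposited, with a floor of 16, with replicate numbers as a block and without saturated probes. The floor of 16 raised the dimmer mutant pool to the limit, next to the other pool. The SE was thereby reduced to 0.07, at a difference of -2.31.

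Of the widely expressed forms, Cox6a1 and Cox8a were near the top of the scale, while Cox7a2 was about as bright as Cox7a1. Cox7a2 was at 12.97 and 12.93 in the controls and 12.81 and 12.51 in Salv CKO, with no overlap and a difference of -0.29 ± 0.11 (adjusted p = 0.191). The change of Cox7a1 minus that of Cox7a2, taken within each array, was -0.63. Its values were -0.12 and 0.16 in the controls and -0.79 and -0.43 in Salv CKO, and an exact two-sided permutation test over the arrays gave p = 0.333, the smallest that 2 against 2 allows, so this test could not pass 0.05.

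Saturation limited the other pairs. Cox6a1 was saturated in both controls (15.95 and 15.95) on its brightest probe, and its Salv CKO levels were 15.75 and 15.94. No fold is given, since the groups overlap in the deposited intensities. Its other probe, saturated on 1 control array, gave -0.50 ± 0.12 (adjusted p = 0.0653 over all probes). Its sign on the brightest probe turned with arrays centred on their medians (0.19) or divided by their 75th percentile (0.33). Cox8a and Cox4i1, the widely expressed subunit IV, were saturated in both groups and give no difference.

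Of the remaining complex IV subunits none was called. Cox6b1, which helps to bridge the dimer, was at 15.63 and 15.84 in the controls, 1 of them saturated, and at 15.41 and 15.26 in Salv CKO (-0.40 ± 0.10, adjusted p = 0.0733). Its other probe, saturated on no array, gave -0.21 ± 0.09 (adjusted p = 0.260 over all probes). Cox6b2, known as a testis form of that subunit, was well above background on all 4 arrays, at 12.15 and 12.06 in the controls and 11.61 and 11.91 in Salv CKO (-0.35 ± 0.12, adjusted p = 0.142). Cox5a, Cox7b and Ndufa4, a subunit first assigned to complex I, were at -0.22, -0.30 and -0.05. Cox7a2l, a factor of supercomplex assembly, was at -0.03 ± 0.26. Cox4i2, the lung form of subunit IV, and Cox7b2 were above background on no array, and Cox8c was on 1. The median over the 12 measured members of complex IV was -0.25, and -0.16 over 10 without the muscle forms.

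**Figure D3:**
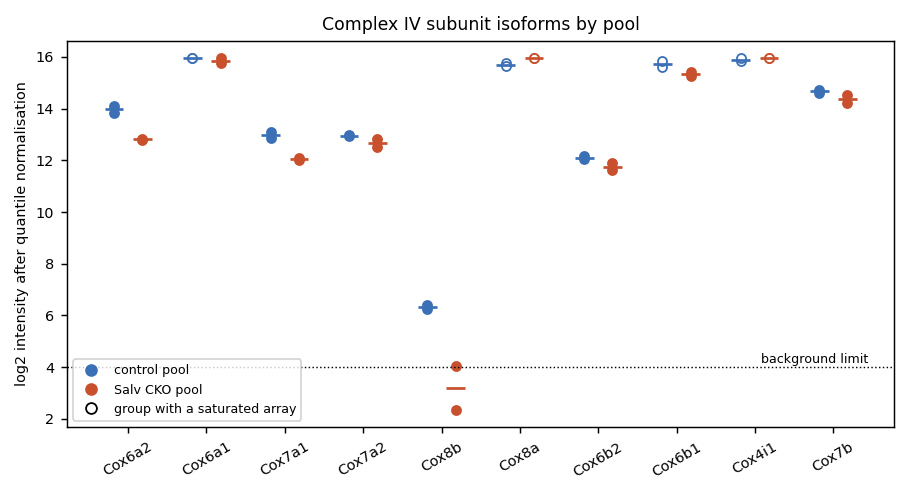
Log2 intensity after quantile normalisation (y axis) of 10 complex IV subunits in the 2 control pools (blue) and 2 Salv CKO pools (orange), with a line at each group's mean and open points where a group has a saturated array. For Cox6a2, Cox7a1 and Cox8b the mutant pools lie well below the controls, while the saturated genes sit at the upper end, near log2 16.

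Of the 31 members of complex I, the largest of the complexes, 7 fell and 0 rose. That is 22.6%, where 28.6% of complex III, 5.70% of all genes and 17.2% of the genes at least as bright as the median member were called lower. Its catalytic core was represented by 6 genes, of which 5 lay below 0 with no overlap between groups, as did 33.4% of all measured genes. Ndufs7, which carries the last iron-sulphur cluster before ubiquinone, was at 13.42 and 13.45 in the controls and at 12.90 and 13.04 in Salv CKO. It fell by 0.47 on the log2 scale (SE 0.08, limma adjusted p = 0.0276). Ndufs8, another iron-sulphur subunit of that path, went from 12.79 and 12.97 to 12.41 and 12.48, and fell by 0.43 (SE 0.09, adjusted p = 0.0458).

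The other core subunits did not pass. Ndufv2 and Ndufs1, iron-sulphur subunits of the NADH-oxidising arm, were at -0.50 ± 0.16 (adjusted p = 0.129) and -0.40 ± 0.11 (adjusted p = 0.0946). Ndufv1, which binds NADH and flavin, was at -0.08 ± 0.06. Ndufs3 went the other way, from 10.80 and 10.74 in the controls to 11.03 and 10.98 in Salv CKO (0.23 ± 0.08, adjusted p = 0.134), and was the sole core subunit with both mutant pools above both controls.

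Accessory subunits surround the core and are needed for its assembly or stability, and 5 of 25 fell. That is 20%, beside 5.70% of all genes and 17.2% of the genes at least as bright as the median member. Ndufa3, a small subunit of the membrane arm, was at 14.82 and 14.76 in the controls and at 14.11 and 14.19 in Salv CKO. Its difference of -0.64 ± 0.07 (adjusted p = 0.0117) was the largest called in complex I and equals 0.642 of control. Ndufc1, also of the membrane arm, went from 12.69 and 12.66 to 12.20 and 11.93 (-0.61 ± 0.11, adjusted p = 0.0319). Its other probe was above background on 1 array, and with the mean of both probes the difference was 0.15 with no call (adjusted p = 0.822).

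Ndufa12, of the peripheral arm, went from 15.48 and 15.50 in the controls to 15.00 and 15.13 in Salv CKO (-0.42 ± 0.07, adjusted p = 0.0312). Ndufs5, of the membrane arm, went from 14.35 and 14.33 to 13.85 and 14.00 (-0.42 ± 0.08, adjusted p = 0.0361). Ndufa9, which lies where the arms join, was at 15.42 in both controls and at 15.06 in both mutant pools (-0.36 ± 0.06, adjusted p = 0.0279). All 3 were very bright, and the controls exceeded the mutant pools by more than the pools of a group differed. Ndufa12 and Ndufa9 did not pass with arrays centred on their medians, at -0.57 (adjusted p = 0.0733) and -0.53 (adjusted p = 0.0861).

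The uncalled accessory subunits above background ran from -0.72 for the dimmer gene Ndufb9 (adjusted p = 0.0619) to 0.05 for Ndufb3. Of the 23 measured accessory subunits 21 lay below 0, and for 16 the groups did not overlap on that side. Among all measured genes the shares were 53.8% and 33.4%. Ndufs4 was saturated in both controls on its brightest probe, and its other probe gave -0.36 (adjusted p = 0.162 over all probes). Ndufa2 was above background on no array. Ndufc2 lay above it in 1 mutant pool and at the floor in both controls, so no fold is given. The median over the 29 measured members of complex I was -0.30. The assembly factors Ndufa12l and Ndufaf1 did not share that sign, at 0.33 ± 0.07 (adjusted p = 0.0563) and 0.11 ± 0.13. Ndufa12l had both mutant pools above both controls. It was called higher when genes above background alone were tested and with replicate numbers as a block, and under no other alternative.

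In complex III, 2 of 7 subunits fell. Uqcr (Uqcr11), a small subunit of the complex, was at 12.94 and 12.79 in the controls and at 12.24 and 12.21 in Salv CKO (-0.64 ± 0.08, adjusted p = 0.0155). Uqcrc1, a core protein that faces the matrix, went from 13.95 and 14.16 to 13.29 and 13.55 (-0.63 ± 0.12, adjusted p = 0.0406). The mutant levels were 0.642 and 0.644 of control.

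The redox subunits of complex III did not follow these. Uqcrfs1, the Rieske iron-sulphur protein, was at 8.95 and 9.18 in the controls and at 9.26 and 9.68 in Salv CKO (0.40 ± 0.18, adjusted p = 0.245). It had the highest difference among the measured members. Cyc1, cytochrome c1, was saturated in 1 control and overlapped between groups (-0.13 ± 0.18). Uqcrh, the hinge protein between cytochromes c1 and c, was saturated in both controls, which were at least 1.21-fold higher after quantile normalisation, with a difference of -0.05 when arrays were divided by their 75th percentile. Uqcrc2 and Uqcrq were at -0.10 and 0.03. The median of complex III was -0.13, and -0.02 relative to all measured genes with arrays centred on their medians.

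Complex II, the sole complex with no mitochondrially coded part, had no call. Its 4 subunits were dimmer than the members' median level of log2 12.2, below which 0 members were called. Dimmer genes could be called, since 951 of all 16675 genes were called lower and 221 of these were at least that bright. Sdha, the flavoprotein, was at 7.90 and 8.25 in the controls and at 7.36 and 7.92 in Salv CKO (-0.43 ± 0.25, adjusted p = 0.363). Sdhb, the iron-sulphur subunit, was at 10.14 and 10.18 against 9.69 and 10.04 (-0.29 ± 0.14, adjusted p = 0.271). The membrane anchors Sdhc and Sdhd were at 0.06 and 0.21, with overlapping groups. The 4 subunits thus lay 2 on each side of 0.

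Complex V, the ATP synthase, had no call either, although 8 of its 9 subunits lay below 0 and its median of -0.36 was the lowest of the 5 complexes. Atp5a1, Atp5d, Atp5e, Atp5g3, Atp5j and Atp5k were dimmer than the members' median level of log2 12.2, below which 0 members were called. Atp5b, Atp5c1 and Atp5f1 were brighter than that level and were not called either. Atp5j (coupling factor 6 of the stator) was at 9.25 and 9.52 in the controls and at 8.49 and 8.92 in Salv CKO (-0.68 ± 0.19, adjusted p = 0.0993). Atp5k, a membrane subunit, was at 8.09 and 8.46 against 7.55 and 7.65 (-0.67 ± 0.19, adjusted p = 0.0941). In both genes the mutant pools lay below both controls. Atp5j did pass with arrays centred (limma adjusted p = 0.0415) and as deposited (0.0269). It also passed with replicate numbers as a block (0.0282) and when genes above background alone were tested (0.0439). Atp5k passed as deposited (0.0448) and among genes above background (0.0464). Neither gene passed under the other alternatives.

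In the F1 part of complex V, the epsilon (Atp5e) and delta (Atp5d) subunits were at -0.49 ± 0.19 and -0.37 ± 0.11 with no overlap between groups. The alpha (Atp5a1) and beta (Atp5b) subunits were at -0.36 ± 0.21 and -0.23 ± 0.15, and 1 control pool lay within the range of the mutant pools. The gamma subunit (Atp5c1) was saturated on all arrays on its brightest probe. Its other probe was far dimmer, at 7.17 and 6.99 in the controls and 7.55 and 7.82 in Salv CKO, with both mutant pools higher (0.61 ± 0.19, adjusted p = 0.131 over all probes). The stator subunit Atp5f1 was at -0.20 ± 0.09. Atp5g3, 1 of the genes for the proton-carrying ring, was at -0.18 ± 0.25, and the sign turned without control pool 1 (0.18).

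The further genes not counted as subunits stayed near 0. Cox4nb was at 0.15, Atp5s at 0.17 and Atp5sl at -0.06.

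Genes that feed or build the chain were taken from lists by function. Of 17 genes on the array of the citric acid cycle and pyruvate dehydrogenase, 4 fell (23.5%) and 0 rose, with a median of -0.32. These were Ogdh (-1.34 ± 0.08, adjusted p = 0.00661) and Dlst (-0.77 ± 0.07, adjusted p = 0.0107) of oxoglutarate dehydrogenase, Idh3a of isocitrate dehydrogenase (-0.94 ± 0.08, adjusted p = 0.00946) and Dlat of pyruvate dehydrogenase (-0.62 ± 0.11, adjusted p = 0.0360). Of 23 further assembly factors 2 fell, Cox15 of haem a synthesis (-0.49) and Higd2a (-0.86), 0 rose, and the median was -0.08. That is 8.70% called lower, beside 5.70% of all genes. Of the 22 factors above background on all 4 arrays, both mutant pools lay below both controls for 10 and above both for 8. Over all genes so measured the shares were 33.4% and 27.8%. Lrpprc, which stabilises mitochondrial messenger RNA, had the largest difference of the list (1.13 ± 0.25, adjusted p = 0.0541), and Tmem70, of ATP synthase assembly, was at 0.49 ± 0.11 (adjusted p = 0.0610). None of 15 carriers and import proteins was called (median -0.08). An unadjusted limma p under 0.05 was found for 3 of these 15, beside 4460 of all 16675 genes.

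Of 17 genes for mitochondrial DNA expression and its regulators 4 fell (23.5%, beside 5.70% of all genes) and 0 rose. The median, though, was 0.05 (-0.12 with arrays centred on their medians). The coactivator Ppargc1b was at -1.30 ± 0.11 (adjusted p = 0.00912). Its relative Ppargc1a fell by 0.76 (adjusted p = 0.0197), their nuclear receptor partner Esrra by 0.85 (adjusted p = 0.00762) and the mitochondrial RNA polymerase Polrmt by 0.39 (adjusted p = 0.0273). Nrf1 and Gabpa, the factors named for the NRF-1 and ETS letters above, were at -0.37 ± 0.21 and 0.17 ± 0.20 with no call.

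Heart muscle is rich in mitochondria, and part of its markers were lower in the same pools. All 17 measured markers of heart muscle were above background on all 4 arrays, as the tissue label has it, and 8 of 17 fell (47.1%, beside 5.70% of all genes) with 0 that rose, at a median of -0.60. Actc1, Myl3, Myl4 and Myl7 lay above 0 with no call. Their summed level was log2 19.08 to 19.16 in the controls and 18.87 to 18.89 in Salv CKO, a sum capped by 6 genes saturated on some array (Actc1, Actn2, Myh6, Myl2, Myl3 and Myl4). Over the other 11 it was 17.57 to 17.78 in the controls and 17.17 to 17.18 in Salv CKO. Titin (Ttn) was at -1.41 ± 0.09 and Tcap at -1.35 ± 0.07. In pooled whole hearts, fewer cells of a type and less RNA per cell cannot be told apart.

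Markers of other cells also differed between the same pools. Of 8 endothelial markers 4 fell and 1 rose (summed log2 14.20 to 14.24 in the controls, 13.44 to 13.54 in Salv CKO), and of 8 red cell markers 2 fell (16.96 in both controls and 16.70 in both mutant pools, or 15.96 to 16.01 and 15.39 to 15.47 without the saturated Hba-x). Higher in Salv CKO were 5 of 10 neural (12.03 to 12.18 against 13.39 to 13.48), 4 of 10 neural crest (13.90 to 13.91 against 15.63), 3 of 8 somite (9.53 to 9.54 against 11.91) and 4 of 9 endoderm markers (12.00 to 12.05 against 13.24 to 13.25). The neural marker Nes fell. Beside these counts, 5.70% of all genes were called lower and 4.92% higher. In Salv CKO the neural crest sum was mostly that of Crabp1 (15.53 in both pools). The somite sum there was mostly that of Tcf15 (11.58 and 11.55). Dlx2, Ednrb, Pax9 and Mesp2 lay below 0 with no call. Dlx5, Foxd3, Myf5 and Epb4.2 were above background on no array. The part of these markers in the differences of the respiratory chain was not tested.

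**Figure D4:**
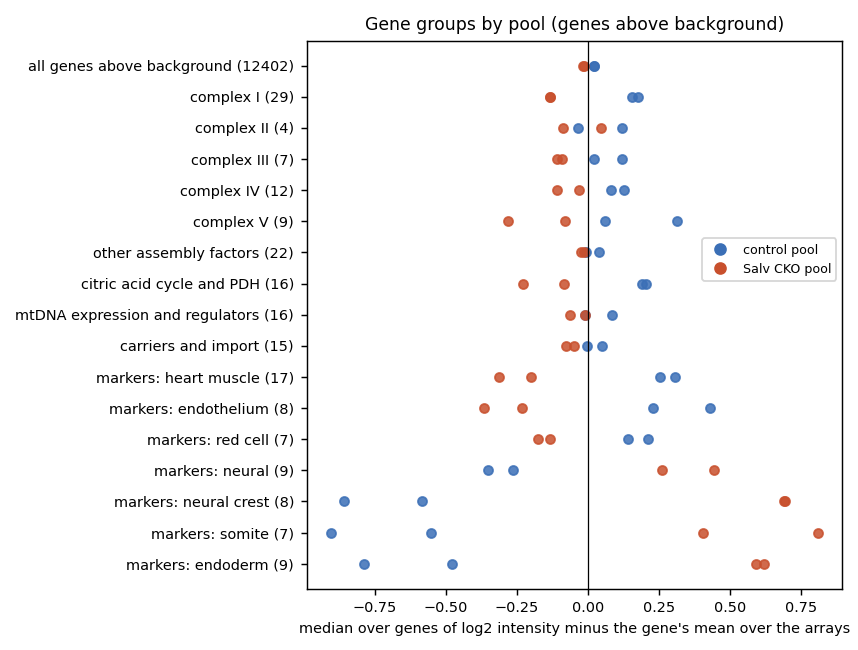
Median over genes of log2 intensity minus each gene's mean over the 4 arrays (x axis) for each complex, companion list and marker list (y axis, genes above background in parentheses), with 1 point per pool. Both mutant pools (orange) lie below both controls (blue) for complexes I, III, IV and V, whose medians are -0.13 to -0.36, and for heart muscle markers, at -0.60. The same order of pools holds for all genes above background, at -0.04. It also holds for the assembly, citric acid cycle, carrier, endothelial and red cell lists.

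Sav1 itself was at 9.56 and 9.30 in the controls and 9.19 and 9.13 in Salv CKO (-0.27 ± 0.13, adjusted p = 0.266), and no source used here says whether its probe lies in the deleted part, so it does not check the labels. Array medians were 77.5 and 101.4 in the controls and 71.1 and 76.1 in Salv CKO as deposited. The size of the shift depended on the scaling. The members' median was -0.24 after quantile normalisation, -0.41 with arrays centred on their medians, -0.26 with division by the 75th percentile and -0.68 as deposited, where the median of all measured genes was -0.04, -0.17, -0.03 and -0.44. Relative to all genes it was -0.20 after quantile normalisation and -0.23 in the others, which differ by 1 constant per array and so give the same relative value. The 11 called members kept their sign under each scaling. Saturation touched 8 members, and over the 58 measured members saturated on no array the median was -0.29.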

How the data were processed

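Per the labels, RNA was extracted with a column kit, amplified with aminoallyl nucleotides, then labelled with Cy5 for a one-colour array. The deposited values are linear intensities, 1 per probe. The values below 0 (3.37 to 5.99% per array) show that background had been subtracted. No source used here names the scanner, scaling or software.

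With limma 3.58.1 in R 4.3.3 the arrays were quantile normalised, floored at an intensity of 1 and put on the log2 scale. A probe was saturated at an intensity of 65000 before the array's own factor, which held for 67 to 122 probes per array. The platform's table gave 1 symbol for 21020 of 29922 probes. Each gene was represented by its brightest probe by mean, and 11 members had several probes. Of the 72 member symbols 66 are official in RefSeq (GRCm38.p6) and 6 are synonyms. Genes were tested with limma (lmFit, eBayes, trend = TRUE; prior df 2.92) in two-sided tests with Benjamini-Hochberg adjustment over 16675 genes at 0.05. With 2 pools per group no gene's exact permutation p can go below 0.333. Precision is limited by there being 4 arrays.

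The procedure was tested on simulated data. The members, lists and rules were chosen with earlier results of these data known. The rule for named genes took every called member, the tissue forms of subunits, the 2 members of lowest p in a complex without a call, up to 4 genes of lowest adjusted p in each companion or marker list, and Sav1; other members were named after their values were seen. Genes coded by mitochondrial DNA were not analysed here.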

Additional observations from a re-analysis of the deposited data

How the results depend on the processing

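The count of 11 members lower held within 1.5-fold with arrays centred on their medians (15 lower), divided by their 75th percentile (15), with the mean of all probes (8), with the replicate block (15) and, chosen after seeing the data, with the brightest probe saturated on no array (12). It was 40 with the values as deposited, 20 when the genes above background on all arrays alone were tested, 1 (Cox8b) with a floor of 16 and 0 without the intensity trend, where 17 members had an unadjusted limma p under 0.05. With 1 array left out it was 0 to 0, with 20 to 26 members at an unadjusted limma p under 0.05, and a lone array was taken to vary like the other group. Members higher numbered 4 with the 75th percentile (3 of them saturated in both groups and 1, Ndufc2, at the floor in both controls). There were 2 as deposited (Cox7b2 and Ndufc2), 2 among genes above background (Ndufa12l and the saturated Cox8a) and 1 with the replicate block (Ndufa12l). The pairing of replicate numbers is not stated; deviations of same-numbered pools had r = 0.17 across genes, and the block left all 11 calls in place.

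All genes called lower and higher were 951 and 821. Centring gave 377 higher, the deposited values 3101 and 229, the floor of 16 gave 228 and 253, genes above background 1437 and 1239, and 0 and 0 were called without the trend (3578 at an unadjusted limma p under 0.05) or with 1 array left out (3170 to 3428).

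The members' median of -0.24 was -0.41 with centring, -0.68 as deposited and -0.29 with unsaturated probes, and -0.27 to -0.21 with 1 array left out. The 11 called members stayed below 0 under each alternative except Ndufc1 with the mean of its probes (0.15). Both mutant pools lay below both controls for all 11, so leaving out 1 array could not turn the sign. The floor, the trend, the replicate block, the unsaturated probes and the test of genes above background left their differences unchanged. Their sign could therefore turn only with the scalings and, for Ndufc1, with the mean of probes. Over the 66 measured members the sign turned for 9 with centring, 7 with the 75th percentile, 11 as deposited, 4 with the mean of probes and 3 to 6 with 1 array left out. Among the 14 uncalled genes recomputed one by one it turned for Cox6a1 with centring (0.19) and the 75th percentile (0.33), for Cox7a2l with the 75th percentile (0.050) and without control replicate 2 (-0.30 to 0.23 with 1 array left out), for Ndufa4 without control replicate 2 or Salv CKO replicate 1 (-0.13 to 0.032), and for Atp5g3 without control replicate 1 (-0.54 to 0.18). The cause of these changes was not tested. Saturation and background limit what the brightest and dimmest members can show.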
